A study of Mus musculus with 14 samples.

Results

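Promoter contacts of the second pharyngeal arch were set against those of the frontonasal process and the maxillary component of the first arch. At E10.5 (embryonic day), promoter capture Hi-C (PCHi-C) had been made from cranial neural crest cells (CNCCs) of the second pharyngeal arch (PA2), the frontonasal process (FNP) and the maxillary process (Mx), all of genotype WT. The comparison used 2 PA2 libraries against 2 FNP and 2 Mx libraries, 6 of the 14 libraries of the series, chosen by the labelled location, stage and genotype alone. The remaining 8 libraries, 2 each of the mandibular process (Md) at E10.5, of PA2 at E10.5 with genotype Hoxa2EGFP/EGFP (*Hoxa2* knockout), of the pinna at E12.5 and of the pinna at E14.5, were used to see where else a contact was listed. WT cells were micro-dissected from Wnt1::Cre;ROSA-RFP embryos and sorted for red fluorescence. The *Wnt1* promoter drives Cre in the dorsal neural tube before neural crest cells leave it, so the sorted cells carry both transgenes in every WT group and represent the progeny of *Wnt1*-expressing cells, not a single cell type. Knockout cells were sorted for green fluorescence instead, so genotype and sort cannot be told apart between knockout and WT PA2. The 2 replicates per population are stated to be biologically independent.

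CNCCs migrate from the hindbrain and midbrain into the facial prominences, where they form most of the facial skeleton and connective tissue. Cells of FNP and Mx express no *Hox* genes, whereas PA2 cells express *Hox* genes of paralogue group 2, and the *Hoxa2* protein directs them to form middle and external ear structures in place of jaws. Along the dorsoventral axis of the arches, endothelin signalling and the *Dlx* and *Hand* transcription factors pattern the upper and lower parts, while *Alx* factors act in the frontonasal and maxillary mesenchyme. PCHi-C cuts crosslinked chromatin with HindIII, joins neighbouring ends within each nucleus, and enriches the joined products with a promoter fragment, called the bait. Each deposited list gives pairs of a bait and another fragment with a CHiCAGO score of 5 or more, a score that rises with the evidence that a pair is joined more often than its distance predicts. An unlisted pair was scored 0, which stands for any score below 5.

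The lists of the 6 libraries held between 144624 and 167851 pairs, of which 3.04% to 3.86% joined different chromosomes, and 139707 to 161941 pairs within 1 chromosome were compared. No read counts were at hand, so depth is unknown and the length of a list stands in for it. The 2 PA2 libraries shared 30.2% of the pairs that either listed, the FNP replicates 29.6% and the Mx replicates 29.9%. A PA2 library and an FNP or Mx library shared 28.5% to 29.7%, and an FNP and an Mx library 29.0% to 30.3%, so the ranges within and between populations overlapped. Outside the comparison, Md replicate 1 and E12.5 pinna replicate 2 stand apart, since 46.5% and 62.7% of their pairs joined different chromosomes. The *Hoxa2* bait (chr6:52162863-52166906) is left out of everything below.

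*Hoxb2*, a paralogue group 2 gene of the *Hoxb* cluster, contacted the far end of its own cluster in FNP and Mx and hardly at all in PA2. The nearer bait of its neighbour *Hoxb3* had fewer listed pairs in PA2, while a second *Hoxb3* bait had more without passing the test. *Meis1*, which encodes a cofactor of Hox proteins, and *Eya1*, a transcriptional coactivator that partners homeobox factors, each contacted 1 stretch of their own chromosome less in PA2. To find such stretches, the scores of each bait were summed over fixed windows of 100 kb, and asinh of the sum, which acts like a logarithm for large values, was compared with limma. Of 38177 windows, 7 were lower in PA2 (0.0183%) and 0 were higher, with Benjamini-Hochberg adjusted p below 0.05. Leaving out the *Hoxa2* bait, 6 windows remained. A window was tested if the 6 libraries together listed at least 6 pairs in it, and 5 of the 6 windows, all but that of *Eya1*, passed this filter through FNP and Mx. Such windows had to differ, so their number and direction are no support for a lean towards fewer contacts in PA2. With the filter set instead on the 8 libraries outside the comparison, an alternative chosen after seeing the data, 294 of 45945 windows passed the threshold, 260 higher and 34 lower in PA2. In all 260 of the higher windows the FNP and Mx libraries were at 0 throughout, as PA2 was in 16 of the 34 lower ones. The direction of the calls thus changed with the filter. This outside filter also let in 1057 windows at 0 in all 6 libraries. Adjusted p values under it rest on the same 6 libraries and the same differences, so they are no independent support for a window. At an unadjusted p below 0.05 the main fit gave 3011 windows (7.89%), 653 higher (1.71%) and 2358 lower in PA2 (6.18%). In 9.61% of all windows both PA2 libraries lay below all 4 others, and in 8.03% above them, so a gap between the groups is not by itself a result.

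The *Hoxb2* bait (chr11:96348585-96354229) had its called window at chr11:96200001-96300000, about 101 kb away, across the baits of *Hoxb6* to *Hoxb9*. The summed score there was 5.47 and 5.84 in the PA2 replicates, 86.2 and 101 in FNP, and 81.9 and 73.6 in Mx. All 4 FNP and Mx libraries were far above both PA2 libraries, with a mean of 85.7 ± 11.5 (SD, n = 4) against 5.66 ± 0.262 (SD, n = 2). The difference was -2.70 on the asinh scale (SE 0.178, limma adjusted p = 0.014, and 0.00434 with the filter on the libraries outside the comparison). The adjusted p lay between 0.00249 and 0.307 over 14 alternatives, 5 of which kept it past the threshold. The bait was paired with 1 fragment of this window in each PA2 library and with 10 to 12 in FNP and Mx. In the other libraries the sum was 61.4 and 57.2 in Md, 5.55 and 0 in *Hoxa2* knockout PA2, and 12.8, 10.2, 5.05 and 0 in the pinna libraries. The Md libraries thus lay near FNP and Mx, and the knockout and pinna libraries near wild-type PA2.

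**Figure D1:**
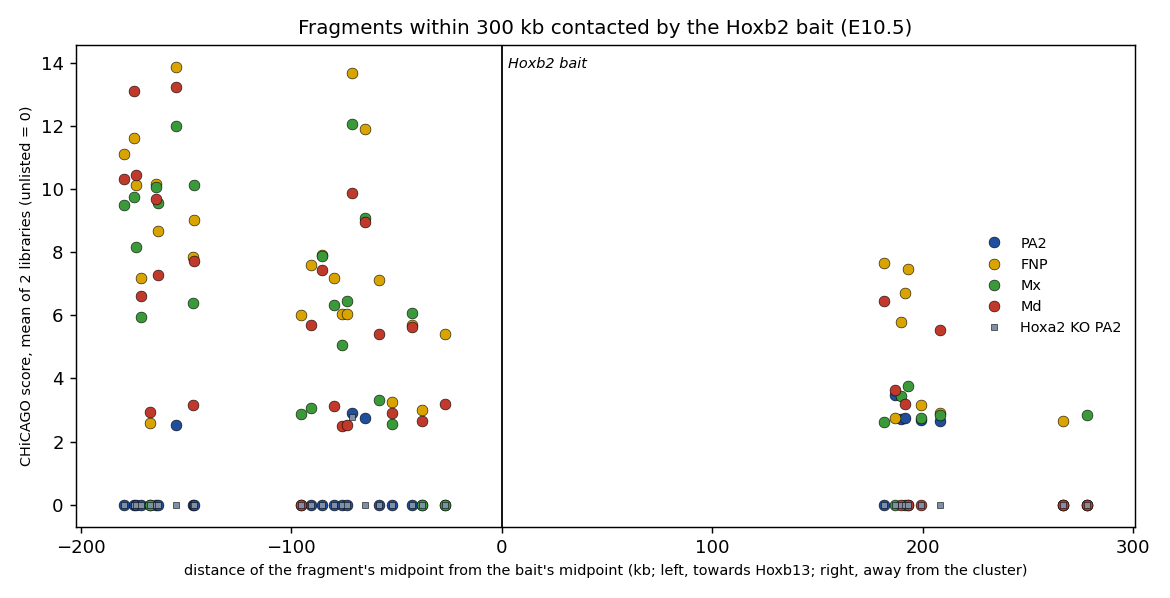
CHiCAGO score (mean of 2 libraries, an unlisted fragment counting as 0) of fragments within 300 kb of the Hoxb2 bait that at least 2 of the 14 libraries listed, against the distance of the fragment from the bait in kb. On the side of the cluster the FNP, Mx and Md points lie above nearly all points of PA2 and of the Hoxa2 knockout, most of which are at 0.

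At the level of single fragments, 13 *Hoxb2* pairs were listed in all 4 FNP and Mx libraries and in neither PA2 library, and they spanned chr11:96168916-96313143. Their mean scores over FNP and Mx ran from 5.55 to 10.7. Of these 13, each Md library listed 11, and the knockout and pinna libraries listed 0. The highest was the fragment chr11:96175369-96177529 between *Hoxb13* and *Ttll6*, with scores of 12.4 and 10.8 in FNP and 9.05 and 10.46 in Mx. The *Hoxb3* bait next to *Hoxb2* (chr11:96341262-96346956) had 8 such pairs, and 7 of the 8 (87.5%) ended on fragments of the *Hoxb2* set, which is 53.8% of that set. The *Hoxb3* windows at chr11:96200001-96300000 and chr11:96100001-96200000 missed the threshold (adjusted p = 0.0614 and 0.0618), with 13.7 and 11.4 in PA2 against 58.98 to 71.04 in the former. The plot of scores by distance from the *Hoxb2* bait shows these fragments.

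The number of listed pairs of a bait was compared with limma in the same way, as log2 of the number plus 1, adjusted for the length of the list. Of 13498 baits, 3 were lower in PA2 (0.0222%) and 0 were higher at an adjusted p below 0.05, while 1153 (8.54%) had an unadjusted p below 0.05, 537 higher (3.98%) and 616 lower (4.56%). A bait was tested if the 6 libraries together listed at least 18 of its pairs, and all 3 passed this filter through FNP and Mx. Such baits had to differ, so their number and direction are no support for a lean towards fewer contacts in PA2. *Hoxb3* was 1 of the 3. Its bait had 7 and 8 listed pairs in PA2, 28 and 27 in FNP, and 23 and 24 in Mx. The groups did not overlap, as was so for 8.11% of all baits with fewer pairs in PA2 and for 5.28% with more. The difference was -1.54 on the log2 scale (SE 0.248, limma adjusted p = 0.048, with 0.0198 to 0.261 over 18 alternatives, 5 of them past the threshold). It had 22 and 20 pairs in Md, 11 and 13 in the knockout, 26 and 15 in the E12.5 pinna, and 3 and 5 in the E14.5 pinna. *Hoxb2* had 8 and 14 pairs in PA2, 30 and 39 in FNP and 26 and 27 in Mx. Its difference of -1.33 missed the threshold (limma adjusted p = 0.0795, and 0.113 with the filter on the libraries outside the comparison).

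The bait of *Hoxb3os* (chr11:96354465), next to *Hoxb2*, had 5 pairs in each PA2 library against 15 to 21 in FNP and Mx. Its difference of -1.48 missed the threshold (limma adjusted p = 0.0795). This bait too passed the filter of 18 listed pairs through FNP and Mx. Some other baits of the *Hoxb* cluster had more pairs in PA2 without passing the test. A second *Hoxb3* bait (chr11:96321828) had 25 and 31 pairs in PA2 against 12 to 24 in FNP and Mx (difference 0.76, adjusted p = 0.47). *Hoxb6* had 19 and 33 against 12 to 18, and the antisense transcript *Hoxb5os* 45 and 56 against 22 to 34. *Hoxb5os* was listed with 8 fragments in both PA2 libraries and in no FNP or Mx library. Of its 2 pairs with the opposite pattern, 1 joined it to the *Hoxb2* bait and 1 to the *Hoxb3* bait. *Hoxb1*, *Hoxb7*, *Hoxb8*, *Hoxb9* and *Hoxb13* had overlapping numbers of pairs in PA2 and in FNP and Mx.

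The *Meis1* window (chr11:18800001-18900000, about 163 kb from the bait chr11:19011027-19015228) was empty in both PA2 libraries. Its summed score was 39.6 and 42.4 in FNP and 52.4 and 67.4 in Mx, a mean of 50.5 ± 12.6 (SD, n = 4). The difference was -4.59 on the asinh scale (SE 0.348, limma adjusted p = 0.0197, and 0.00434 with the filter on the libraries outside the comparison), with an adjusted p of 0.000865 to 0.385 over 14 alternatives, 6 of them past the threshold. The window also held scores of 37.7 and 38.1 in Md, 53.03 and 90.8 in the E12.5 pinna and 31.5 and 61.4 in the E14.5 pinna. Only the 4 PA2 libraries of E10.5, 2 WT and 2 *Hoxa2* knockout, had 0 there among the 14. The 4 *Meis1* pairs listed in all FNP and Mx libraries and in no PA2 library were listed in each Md and pinna library as well and in neither knockout library.

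The *Eya1* bait (chr1:14308051-14313672) kept part of its contacts with the window chr1:14500001-14600000, about 239 kb away and outside the *Eya1* gene. PA2 had summed scores of 17.6 and 20.95, FNP 97.4 and 104, and Mx 103 and 124. All 4 FNP and Mx libraries lay far above both PA2 libraries. The difference was -1.71 on the asinh scale (SE 0.141, limma adjusted p = 0.0292, and 0.00434 with the filter on the libraries outside the comparison), with an adjusted p of 0.00434 to 0.374 over 14 alternatives, 4 of them past the threshold. Md had 32.98 and 54.4, the knockout 45.6 and 66.7, and no pinna library more than 6.17. Over all fragments, *Eya1* had 24 and 21 pairs in PA2 and 32 to 34 in FNP and Mx (difference -0.43, adjusted p = 0.58).

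A contact between the *Dlx6os2* bait (chr6:6864914-6870464), a fragment that also holds exons of *Dlx6* and its antisense transcript, and the *Fezf1* region lay 16.4 Mb away. The window chr6:23200001-23300000 had summed scores of 33 and 36.5 in FNP and 37.9 and 40.2 in Mx, and 0 in PA2. It was 0 in each of the 8 remaining libraries too, so this contact appeared in FNP and Mx alone among the 14. The difference was -4.30 on the asinh scale (SE 0.372). Since no library outside the comparison listed a pair here, the window could not be tested without the filter on FNP and Mx, and its values are a description. *Dlx6* and *Fezf1* encode homeobox and zinc finger transcription factors. Their 2 baits were paired directly, with scores of 10.47 and 22.9 in FNP and 29.5 and 18.8 in Mx.

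The 2 further windows belonged to a bait without a gene start and to a predicted gene. A bait without an annotated start site (chr11:85513643-85523076, window chr11:85600001-85700000) had summed scores of 0 in PA2, 37.7 and 80.6 in FNP and 86.6 and 75.9 in Mx, and at most 5.33 in any remaining library. This window too did not pass the filter on the libraries outside the comparison, and its values are a description. *Tbx2*, a T-box repressor gene on the same stretch of the chromosome, had 7 FNP and Mx-only pairs, with ends between chr11:85426245 and chr11:85841623, but 58 and 64 pairs in PA2 against 62 to 80. *Gm11634* (chr11:101598769-101599705) had 0 in PA2 against 30.2 to 71.1 in FNP and Mx in a window 14.2 Mb away (limma adjusted p = 0.0342, and 0.0087 with the filter on the libraries outside the comparison, with 0.0087 to 0.435 over 14 alternatives, 4 of them past the threshold). In the other libraries the sum was 23.5 and 78.01 in Md, 16.5 and 24.55 in *Hoxa2* knockout PA2, and 0 in the pinna. The nearby bait of the small nuclear RNA gene *Rnu2-10* had an FNP and Mx-only pair with an intron of *Tex14*, beside that window. Over chr11:87400001-87500000, which holds this pair, *Rnu2-10* was also contacted in PA2. Its summed scores there were 122 and 137 in PA2 against 247 to 343 in FNP and Mx (limma adjusted p = 0.123). Small nuclear RNA genes have near-identical copies elsewhere in the genome, and how far reads shared between copies set these scores was not tested.

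**Figure D2:**
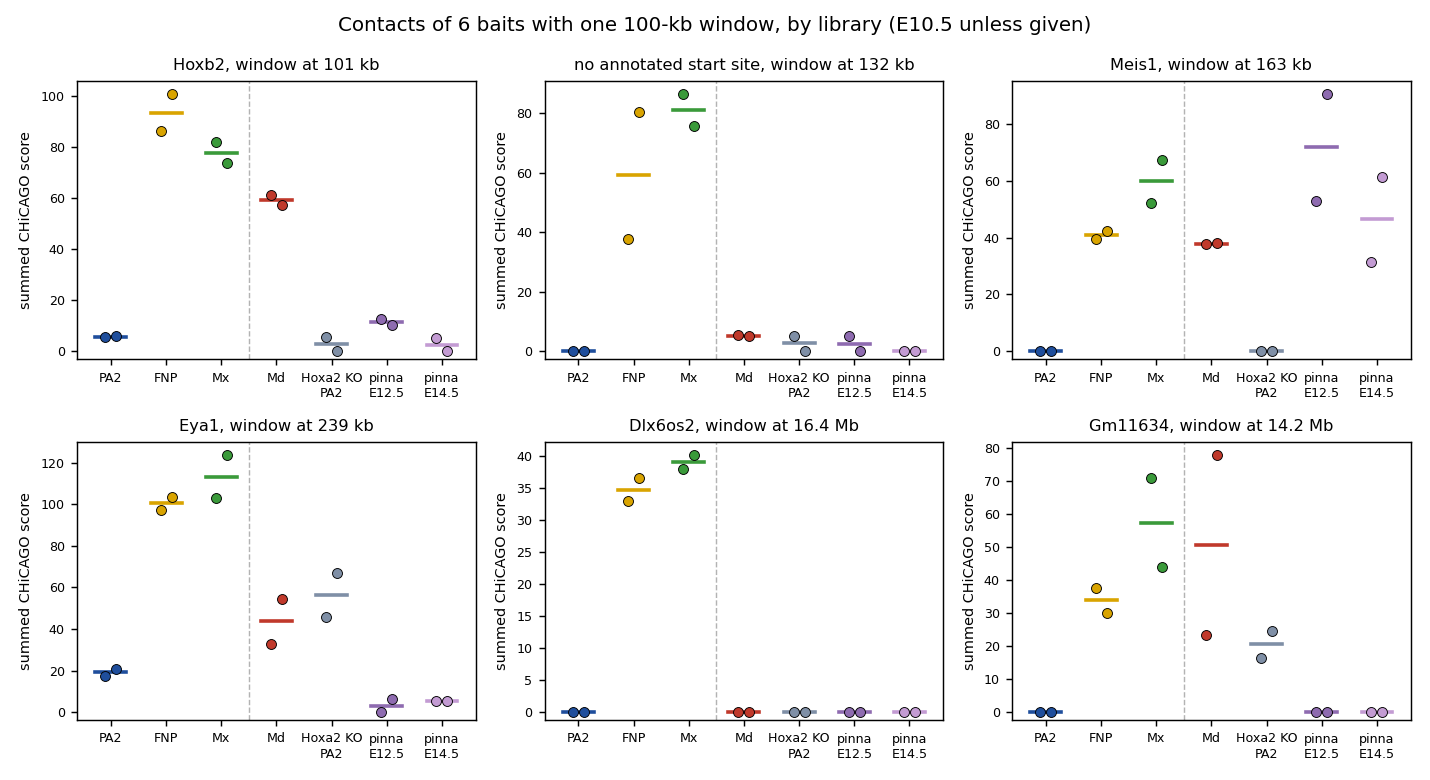
Summed CHiCAGO score of 6 baits in 1 window of 100 kb each, by library, with a bar at the mean of the 2 replicates, and to the right of the dashed line the libraries outside the comparison. In each panel the 2 PA2 points lie below the 4 FNP and Mx points, and the Md, knockout and pinna points differ from panel to panel.

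Of the 3 fragments printed here, 2 are the highest-scoring ends of the *Hoxb2* and *Eya1* baits that all FNP and Mx libraries and no PA2 library listed, and the third is the highest-scoring *Dlx2* end that both PA2 libraries and no FNP or Mx library listed. The central 300 bases of each are given 5′ to 3′ on the forward strand of mm10. Capitals mark 2 motifs searched on both strands, TGATNNAT, bound by Hox and Pbx proteins together, and TGACAG, bound by Meis proteins.
Hoxb2 end, chr11:96176299-96176598: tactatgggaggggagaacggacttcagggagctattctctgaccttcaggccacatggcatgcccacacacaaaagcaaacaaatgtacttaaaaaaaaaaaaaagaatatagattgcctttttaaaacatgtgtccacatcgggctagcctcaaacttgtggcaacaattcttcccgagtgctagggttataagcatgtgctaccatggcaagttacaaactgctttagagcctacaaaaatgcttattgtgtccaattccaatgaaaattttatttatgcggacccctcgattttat
Eya1 end, chr1:14499983-14500282: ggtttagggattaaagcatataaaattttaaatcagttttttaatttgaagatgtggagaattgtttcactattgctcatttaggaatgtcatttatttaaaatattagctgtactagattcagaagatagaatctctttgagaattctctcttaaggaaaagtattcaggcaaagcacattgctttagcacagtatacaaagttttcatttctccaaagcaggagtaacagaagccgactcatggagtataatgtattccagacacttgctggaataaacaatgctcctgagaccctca
Dlx2 end, chr2:71212400-71212699: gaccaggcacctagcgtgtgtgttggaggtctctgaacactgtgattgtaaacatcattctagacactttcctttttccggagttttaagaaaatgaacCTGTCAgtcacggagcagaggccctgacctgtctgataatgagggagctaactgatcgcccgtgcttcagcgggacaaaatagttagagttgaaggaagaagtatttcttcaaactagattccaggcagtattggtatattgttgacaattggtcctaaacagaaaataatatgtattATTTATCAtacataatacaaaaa
Only the *Dlx2* end held either motif in this stretch, 1 of each, both on the reverse strand. Among all contacted fragments, 14.3% held TGATNNAT and 18.9% TGACAG in their central 300 bases. The shares were 13.2% and 19.2% for ends listed in PA2 alone, and 12.4% and 19.8% for ends listed in FNP and Mx alone. Median GC content was 44.5% and 44.7%, against 44.3% for all.

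Beside *Hoxb3*, the called baits were *Gm22813* (chr2:106804485), with 2 and 0 pairs in PA2 against 8 to 19 in FNP and Mx (adjusted p = 0.0422), and a bait without an annotated start site (chr12:21365929), with 6 and 3 against 13 to 58 (adjusted p = 0.0422). Replicates could differ widely for the latter, since the Md libraries had 2 and 75. All 3 baits passed the filter of 18 listed pairs through FNP and Mx. With that filter set on the 8 libraries outside the comparison, chosen after seeing the data, the same 3 were called, each with limma adjusted p = 0.0409. These calls rest on few libraries. With 1 library left out, 5 baits passed without either PA2 replicate, all lower in PA2. Without FNP replicate 1 or Mx replicate 1, 1 bait passed and was lower, without FNP replicate 2, 1 passed and was higher, and without Mx replicate 2, 0 passed. For windows, 20 passed without PA2 replicate 2 and 0 without PA2 replicate 1 or without any one of the FNP and Mx libraries.

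*Alx1* and *Alx4* missed the threshold, at an adjusted p that several baits outside the gene lists shared, some of them higher in PA2. *Alx1*, a homeobox gene required for the upper face, had 2 and 3 listed pairs in PA2, 20 and 27 in FNP and 8 and 11 in Mx (difference -2.10, SE 0.407, limma adjusted p = 0.0795). It passed the filter of 18 listed pairs through FNP and Mx. Its pair with chr10:103113207-103115947, in an intron of *Lrriq1*, had scores of 19.8 and 25.1 in FNP and 8.32 and 6.48 in Mx, and was listed in no other library of the 14. *Alx4* had 6 and 16 pairs in PA2, 51 and 40 in FNP and 37 and 29 in Mx (difference -1.76, SE 0.316, adjusted p = 0.0795). Both genes had their highest numbers in FNP, and Md lay between 8 and 25 pairs. The bait of the zinc finger gene *Gata3*, which also holds start sites of *4930412O13Rik* and *9230102O04Rik*, had 8 and 11 pairs against 22 to 36 (difference -1.32, adjusted p = 0.0795). With the filter on the libraries outside the comparison, the limma adjusted p was 0.113 for *Alx1*, 0.0956 for *Alx4* and 0.113 for this *Gata3* bait.

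Of the dorsoventral patterning genes, *Dlx1* to *Dlx4*, *Hand2* and *Nkx3-2* had more pairs in PA2 at an unadjusted p below 0.05, and 0 of them passed the adjusted threshold. *Dlx1* had 35 and 39 pairs in PA2, 18 and 15 in FNP and 23 and 21 in Mx (difference 1.02, SE 0.238, limma adjusted p = 0.184). *Dlx2*, its neighbour, had 49 and 38 in PA2, 28 and 16 in FNP and 19 and 20 in Mx (difference 1.14, SE 0.262, adjusted p = 0.17). *Hoxa2* knockout PA2 had 51 and 39 pairs for *Dlx1* and 45 and 59 for *Dlx2*, while no Md or pinna library had more than 22 and 25. The 4 PA2 libraries of both genotypes thus had the highest numbers of all 14 libraries at these linked genes. Their PA2-only pairs, 8 for *Dlx1* and 7 for *Dlx2*, lay 201 to 331 kb away on 1 side, and 2 ends were shared. *Dlx3* had 33 and 31 pairs against 11 to 24, and *Dlx4* 14 and 15 against 6 to 11.

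*Hand2*, which encodes a bHLH factor of the ventral arch, had 59 and 66 pairs in PA2, 37 and 31 in FNP and 42 in each Mx library (difference 0.81, SE 0.191, adjusted p = 0.186). Md had 69 and 73, so the higher number was shared with the mandibular arch. Of its 6 PA2-only pairs, the Md libraries listed 5 and 6. The highest joined it to chr8:56648087-56650153, 684 kb away, with scores of 11.2 and 9.49 in PA2. *Bmp4*, a growth factor gene, had fewer pairs in PA2 at both of its baits (11 and 8 against 15 to 23, and 10 and 7 against 11 to 21), and so had the endothelin receptor gene *Ednra* (2 and 5 against 7 to 9), with adjusted p = 0.407, 0.561 and 0.474.

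**Figure D3:**
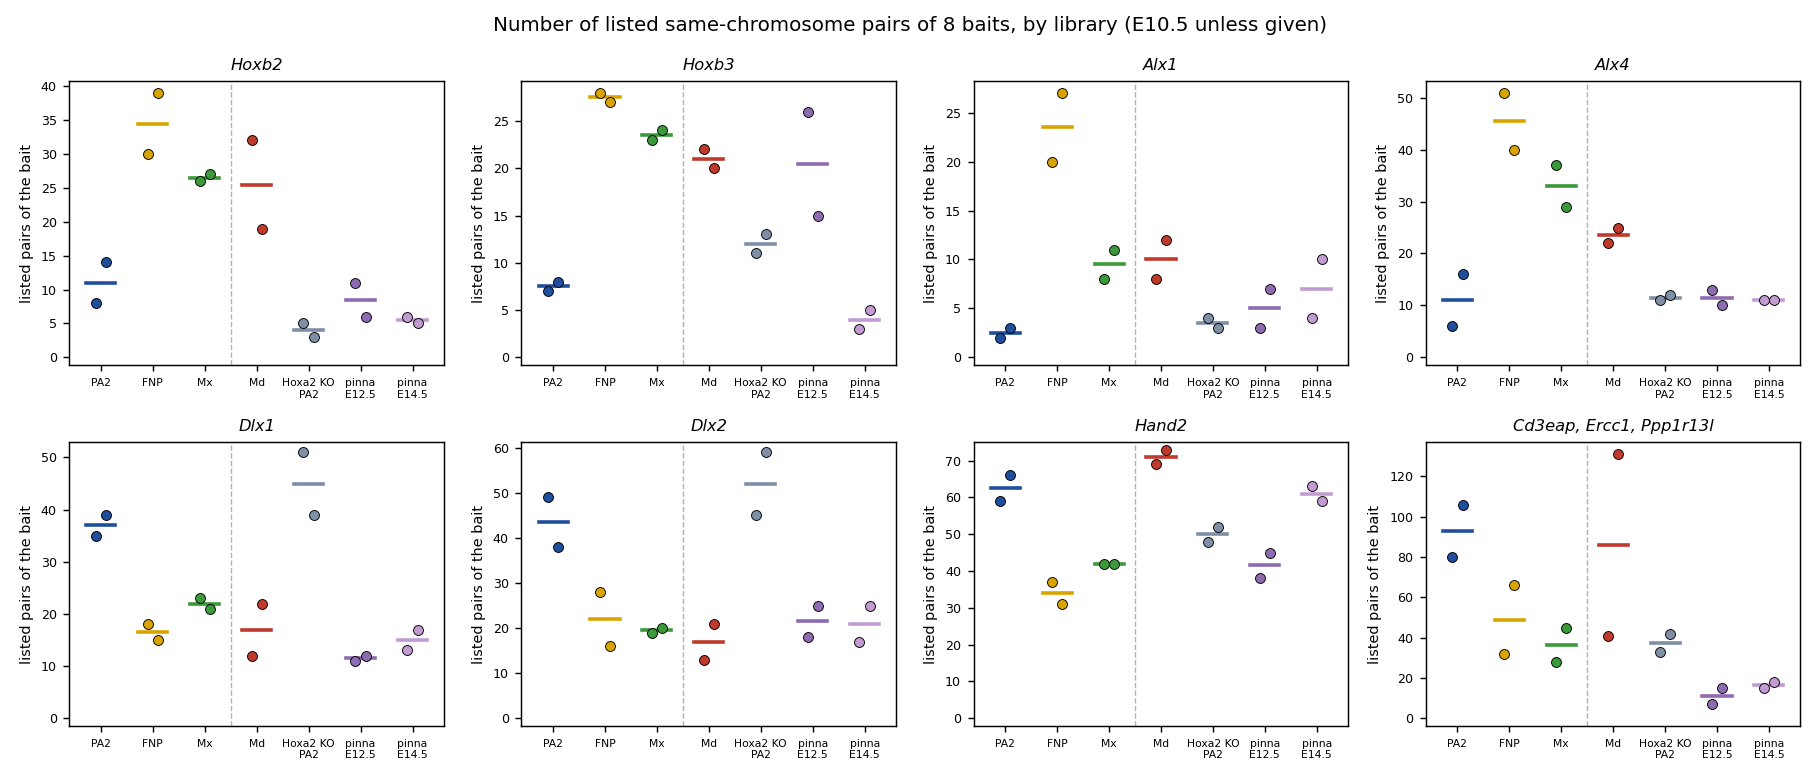
Number of listed same-chromosome pairs of 8 baits, by library, with a bar at the mean of the 2 replicates, and to the right of the dashed line the libraries outside the comparison. Hoxb2, Hoxb3 (bait chr11:96341262), Alx1 and Alx4 have their lowest E10.5 wild-type numbers in PA2. Dlx1, Dlx2, Hand2 and the Cd3eap, Ercc1 and Ppp1r13l bait have more pairs in PA2 than in FNP and Mx.

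Pairs listed in every library of one side and in none of the other were then counted over the genome. These pairs were picked by their scores, so the counts are descriptions without a test. There were 4282 pairs listed in both PA2 libraries alone, 2.47% of the 173420 pairs that at least 2 of the 6 libraries listed, and 2287 listed in all 4 FNP and Mx libraries alone (1.32%). A PA2-only pair needs 2 listings and an FNP and Mx-only pair needs 4, so the counts are not on the same footing. Of the pairs that both PA2 libraries listed 6.47% were PA2-only, and of those that all 4 FNP and Mx libraries listed 5.23% were FNP and Mx-only. Of the pairs listed in exactly 2 libraries, 6.94% were PA2-only, and of those in exactly 4, 9.66% were FNP and Mx-only. Their mean scores had medians of 6.04 and 6.80, close to the threshold of 5, and scores of 10 or more in every listing library were reached by 20 and 21 pairs. Tested one by one with limma, 0 of 173485 pairs passed (smallest adjusted p = 0.0572), with 8694 at an unadjusted p below 0.05 (5.01%), 2.88% higher and 2.14% lower in PA2. Where listed fragments within 20 kb on the other side were also excluded, 624 and 254 pairs remained, so most of these pairs had a listed neighbour on the other side.

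The PA2-only pairs fell on 3618 baits (16.3% of 22170) and the FNP and Mx-only pairs on 2017 (9.1%), mostly 1 per bait, with 3 or more on 230 (1.04%) and 123 (0.555%). The largest PA2-only set, 17 pairs, belonged to the bait of *Cd3eap*, *Ercc1* and *Ppp1r13l* (chr7:19351932), genes of RNA polymerase I, DNA repair and a p53-binding protein. It had 80 and 106 listed pairs in PA2, 32 and 66 in FNP and 28 and 45 in Mx (difference 1.26, SE 0.24, limma adjusted p = 0.0795). Md replicate 2 had 131 pairs and Md replicate 1 had 41, so this number varied between replicates elsewhere. *Hoxa2* knockout PA2 had 33 and 42 pairs, inside the range of FNP and Mx, and the pinna libraries had 7 to 18.

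Among transcription factor genes, *Pax3*, which acts in neural crest and the frontonasal region, had 10 PA2-only pairs and 4 of the opposite kind. Of the 10, 5 lay beyond 2 Mb. The 10 included the highest PA2-only score, with chr1:63259448 at 14.9 Mb (20.6 and 19.9 in PA2, 37.6 in Md replicate 2 and 13.1 in knockout PA2 replicate 2). The total for *Pax3*, 68 and 66 pairs in PA2, lay inside the range of 53 to 85 in FNP and Mx. *Six2*, a homeobox gene of facial and kidney mesenchyme, had 9 PA2-only pairs, with ends 166 to 233 kb away, and a total of 32 and 36 pairs against 21 to 35. Its highest had scores of 10.4 and 7.54, joined it to an exon of *Camkmt*, and was listed in both knockout and both E12.5 pinna libraries but not in Md. The noncoding transcript *5730596B20Rik*, near *Hoxa2*, had 6 PA2-only pairs, 3 of them ending on fragments that were also PA2-only ends of *Hoxa2*.

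Of the FNP and Mx-only sets, *Fxr2*, an RNA-binding protein gene, had the largest at 17 pairs, all ending on other baits. It had 24 and 22 listed pairs in PA2, 60 and 42 in FNP and 51 and 44 in Mx (difference -0.96, SE 0.215, limma adjusted p = 0.152). Its pair with *Acap1*, 263 kb away, had the highest mean score of the 2287, with 27.8 and 36.3 in FNP and 32.4 and 20.2 in Mx. The 8 libraries outside the comparison listed this pair too, at 11.9 or more, so it was missing from wild-type PA2 at E10.5 alone. *Oaz1*, which encodes ornithine decarboxylase antizyme, had 7, all to other baits, and the bait of *Hjurp* and *Trpm8* had 12, all at 83.8 Mb or more. The latter bait also had 1 PA2-only pair with the same distant region, at 84.9 Mb (20.3 and 13.5 in PA2). *Zik1* had 7 FNP and Mx-only pairs and also 5 of the opposite kind, with 148 to 301 listed pairs per library.

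Over the fixed gene lists, the 10 highest FNP and Mx-only pairs had mean scores of 10.4 to 14.9, and the 10 highest PA2-only pairs 8.15 to 20.2. The former included pairs of *Alx1*, *Gsc*, *Meis1*, *Tbx3*, *Dlx1*, *Eya1*, *Hoxd8*, *Hoxb2* and *Foxl2*. *Gsc*, a homeobox gene of the first arch, was paired with the *Sp8* gene 14.4 Mb away at 7.35 and 10.9 in FNP and 21.04 and 15.2 in Mx, and no other library listed the pair. *Tbx3* was paired with a fragment 520.5 kb away at 7.82 to 17.8. The PA2-only pairs included those of *Pax3*, *Hand2*, *Nkx3-2*, *Six2*, *Zfp703*, *Ebf2*, *Pou3f3*, *Slit2* and *Dlx4*. *Nkx3-2*, which marks the jaw joint region, was paired at 682 kb with 6.44 and 12.6 in PA2, and both Md and both knockout libraries listed that pair. *Ebf2* was paired at 467 kb with 5.37 and 11.9, and no other library listed it.

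Counted by list, 19 of 39 *Hox* baits had a PA2-only pair and 17 an FNP and Mx-only pair, which is 48.7% and 43.6%. The frontonasal and maxillary factors had 7 and 12 of 28, the dorsoventral patterning genes 12 and 10 of 22, second arch genes and Hox cofactors 8 and 10 of 29, forkhead genes 5 and 7 of 13, mesenchymal and skeletal factors 12 and 11 of 37, and signalling genes 19 and 11 of 63. Over all baits these shares were 16.3% and 9.1%, and over the 5213 baits with at least 60 listed pairs in the 6 libraries 36.9% and 27.2%. Baits of these lists had more listed pairs, with medians of 14 to 36.7 per library against 7.67 over all baits, so the shares cannot be told apart from the number of pairs. By the number of listed pairs, 1 *Hox* bait, *Hoxb3*, was called, and 0 baits of the 6 other lists. At an unadjusted p below 0.05, dorsoventral patterning genes had 6 baits higher and 4 lower of 21, frontonasal and maxillary factors 2 and 3 of 27, *Hox* genes 2 and 2 of 39, signalling genes 2 and 1 of 55, second arch genes and Hox cofactors 1 and 4 of 27, forkhead genes 1 and 2 of 13, and mesenchymal and skeletal factors 2 and 1 of 32, while 8.54% of all baits lay there in either direction. The medians of the differences were 0.09 for dorsoventral genes, 0.05 for frontonasal and maxillary factors, 0.10 for *Hox* genes and -0.13 for second arch genes and Hox cofactors, beside 0.03 over all baits.

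PA2-only pairs were shorter than the other pairs listed in exactly 2 of the 6 libraries, with a median of 338 kb against 412 kb, and 5.18% against 8.82% lay beyond 2 Mb. The whole same-chromosome lists differed too, with median distances of 341 and 358 kb in PA2. In FNP they were 348 and 407 kb, and in Mx 369 and 387 kb. Whether this had a part in the shorter PA2-only pairs was not tested. For FNP and Mx-only pairs the medians were 285 kb and 295 kb. Of PA2-only pairs 12.9% ended on another bait, against 14.4% of the other pairs. The 8 libraries that took no part in the choice listed PA2-only pairs more often than the other pairs listed in 2 libraries in knockout PA2 and in the pinna, and about as often in Md. The knockout PA2 libraries listed 19.7% and 21.4% of them against 16.3% and 17.7%, and the E12.5 pinna libraries 26.4% and 23.3% against 20.4% and 19.9%. At E14.5 the pinna shares were 25.5% and 31.2% against 21.7% and 28.6%. In Md the shares were 21.5% and 28.9% against 21.6% and 28.7%. FNP and Mx-only pairs were listed less often than the other pairs listed in 4 libraries in the pinna, with 41.3% and 41.2% at E12.5 against 46.1% and 43.2%, and 40.4% and 53.8% at E14.5 against 45.7% and 55.8%. For these pairs the knockout libraries had 36.9% and 39.2% against 37.5% and 40.3%, and Md 52.5% and 64.9% against 50.4% and 64.9%. These shares are descriptions over pairs, which are not independent, and no test was made of them. The compared sets of pairs were not matched for distance. Of all same-chromosome pairs, 5.54% and 7.57% lay beyond 2 Mb in the knockout libraries and 27.7% and 19.7% in Md. In the pinna libraries 6.94% to 34.2% did. Whether distance had a part in these shares was not tested.

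**Figure D4:**
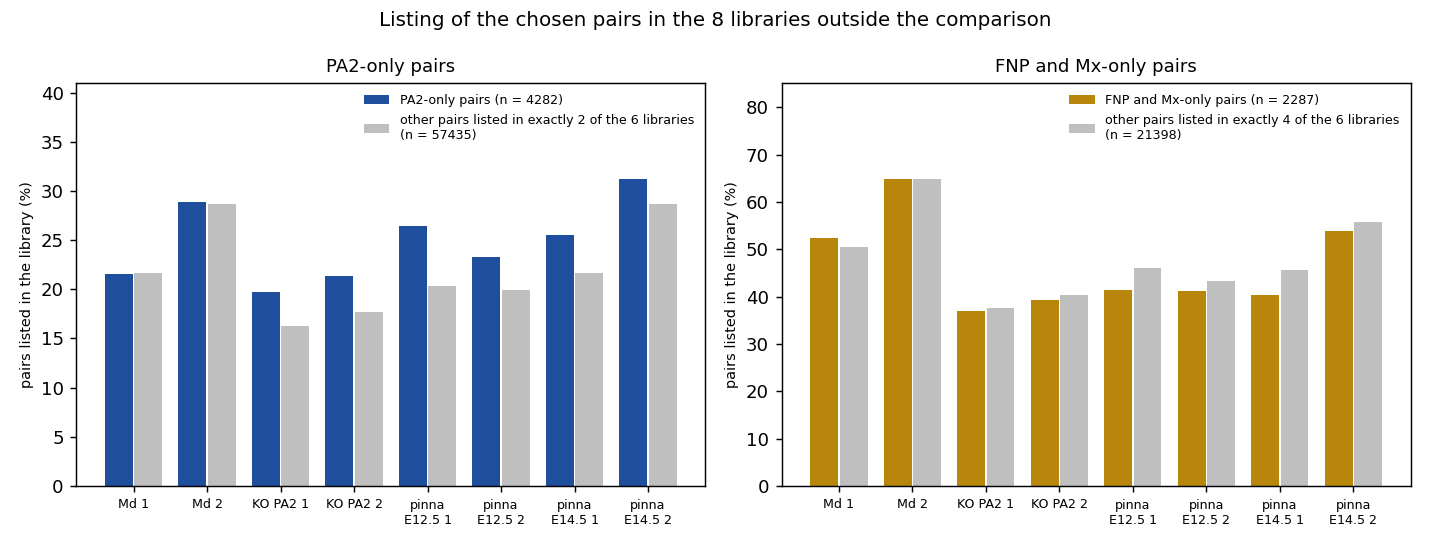
Share of PA2-only pairs (left) and of FNP and Mx-only pairs (right) that each of the 8 libraries outside the comparison listed, in percent, beside the same share of other pairs listed in as many of the 6 libraries. The PA2-only bars exceed the grey bars in the knockout PA2 and pinna libraries and lie close to them in Md. The compared sets of pairs were not matched for distance.

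PCHi-C measures no RNA, so the sorted cells could not be checked by marker expression. The baits of 5 genes of neural crest mesenchyme together had 79 to 85 listed pairs in PA2 and 79 to 93 in FNP and Mx. The baits of 5 skeletal muscle genes had 51 in each PA2 library and 62 to 77 in FNP and Mx. *Pax7* is among these genes and also among the listed frontonasal and maxillary factors, so the sum cannot be assigned to muscle cells. For endothelial, surface epithelial and blood genes the PA2 numbers lay inside or at the edge of the range of FNP and Mx, and for neuronal genes they were 27 and 28 against 26 to 43. Whether other cells in the sorts had a part in the differences above was not tested.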

How the data were processed

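PCHi-C libraries were analysed from the lists that the authors deposited, 1 per library, each row holding a bait fragment, another HindIII fragment and a CHiCAGO score. The authors mapped reads to mm10 with HiCUP and called interactions with CHiCAGO, which fits a background within each library. Per the submitters' processing notes, bcl2fastq 2.17 was used. The deposited score is never below 5. Depth is unknown, so no counting intervals are given. Pairs between chromosomes were not compared. A pair of 2 baits appears once in a list and was counted for both baits in windows, bait totals and counts by gene. Baits were named by GENCODE M21 start sites, protein-coding ones first. Single pairs were tested if listed in at least 2 of the 6 libraries, windows with at least 6 listed pairs and baits with at least 18, using R 4.3.3 with limma 3.58.1 (lmFit, eBayes with a trend, Benjamini-Hochberg adjustment, threshold 0.05), PA2 against the mean of FNP and Mx. A window or bait that passes the filter only through 1 side had to differ. The steps were tested on simulated data, where most large shifts were recovered in windows and baits and few in single pairs, and some unchanged features were also called. Tables were made with Python 3.11.15, pandas 2.3.3 and NumPy 2.4.6, and figures with matplotlib 3.10.9.

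The gene lists, tests and alternatives were chosen with earlier results of these data known. Named were the 10 baits with the most one-sided pairs and the 10 one-sided pairs of highest mean score in each direction, every pair, window or bait past its threshold, and the 10 list genes with the highest one-sided pair in each direction. Genes outside that rule were picked with their values in view: the other *Hoxb* baits, *Alx4*, *Gata3*, *Hand2* totals, *Dlx3*, *Bmp4* and *Ednra*. The alternatives changed filters, window size, scale, scaling and design, or left out each library in turn. A filter on the 8 libraries outside the comparison was added after the data had been examined. Some genes and sequences that the rule names are not reported here.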

Additional observations from a re-analysis of the deposited data

Results flagged for a closer look

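Among the 48 windows, baits and pairs named above, 4 FNP and Mx libraries were searched for 1 value far from the other 3, and 2 were found. Chance alone flags about 1 group in 20. The pair of the *Hjurp* and *Trpm8* bait with chr1:3047695 had a score of 48.02 in Mx replicate 1, against 8.63 to 14.9 in the other 3. The pair of *Rnu2-10* with chr11:87453999 had a score of 24.8 in FNP replicate 2, against 19.3 to 20.3 in the other 3.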

How the results depend on the processing

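The count of PA2-only pairs was 4282 and became 20 with scores of 10 or more in each listing library, 624 without a listed neighbour on the other side within 20 kb, and 5756 to 46862 with 1 library left out. The count of FNP and Mx-only pairs was 2287 and became 21, 254, and 4022 to 6303. For single pairs limma called 0. It called 6 with a listing in at least 1 of the 6 libraries, 3 with at least 3, 4310 with listed or not in place of the score, 6049 with equal numbers of top-scoring pairs, 6244 with 3 group means, 5155 with 7 group means over 14 libraries, 0 to 10564 with 1 library left out, and 0 with a replicate block. With listed or not, one-sided pairs have no spread by construction. In the other settings too, 1 side of such a pair is at 0 throughout and has no spread. Calls higher in PA2 were close in number to the PA2-only pairs with equal numbers of top-scoring pairs (4700 against 4702) and with 3 group means (4338 against 4282). The larger counts of calls are thus no support for pairs that differ. For windows, 7 calls became 3 with 50-kb windows, 0 with at least 2 listed pairs, 173 with the number of listed fragments (77 higher, 96 lower), 0 with 3 group means, 39 with 7 group means (10 higher, 29 lower), 0 with a replicate block, 294 with the filter on the 8 libraries outside the comparison (260 higher, 34 lower), an alternative chosen after seeing the data, and 0 to 20 with 1 library left out. For baits, 3 calls became 0 with a pseudocount of 0.5, 1 with a pseudocount of 4, 8 with asinh of the summed score, 0 without the offset, 0 with equal numbers of top-scoring pairs, 1 with a score threshold of 10, 0 with 7 group means, 3 with a replicate block (1 higher, 2 lower), 3 with the filter on the 8 outside libraries, also chosen after seeing the data (0 higher, 3 lower), and 0 to 5 with 1 library left out. Replicate numbers did not pair the samples, since the correlations of replicate differences between populations were 0.0103 to 0.0873. The sign turned for *Six2* with a score threshold of 10 (-0.24), for *Pax3* without FNP replicate 2 (-0.025 to 0.23 with 1 library left out) and for *Zik1* (-0.089 with asinh of the summed score, -0.047 without the offset, -0.13 with a score threshold of 10, -0.17 to 0.26 with 1 library left out, negative without PA2 replicate 2 or FNP replicate 1). No other window or bait for which these alternatives were run changed direction, and they were not run for *Hoxb1*, *Hoxb3os*, *Hoxb7*, *Hoxb8*, *Hoxb9* and *Hoxb13*. Where no cause is given, the cause was not tested. With 2 PA2 libraries and scores cut at 5, a missing pair can be a pair just below the threshold.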
